A study of Mus musculus with 3 samples.

Results

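The promoters of 9 mouse genes for iron uptake and handling were followed through a map of chromatin contacts in erythroid cells. Their captured DpnII fragments, called viewpoints, were found by exact gene symbol in the names of the 7197 listed viewpoints. Of 10 genes looked for, 9 were present, namely Tfrc, Slc11a2, Steap3, Fth1, Ftl1, Ireb2, Slc40a1, Abcb10 and Slc25a38, and Hmox1 was not analysed here.

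The cells were ter119-selected, CD71+ ter119+ erythroid cells from spleens of F1 hybrid (C57BL/6-cross-CBA/J) mice made anaemic with 3 doses of phenylhydrazine given 12 h apart and taken on day 5, so they describe red cell production under stress in the spleen and there was no untreated group. The age of the mice and the number per library were not given in the sources used here. In Nuclear-Titrated (NuTi) Capture-C, fixed chromatin is cut with DpnII and religated, intact nuclei are kept, and ligation products of chosen promoters are pulled down with biotinylated probes. All 3 libraries belonged to the same group, and the columns of the contact table could not be tied to a replicate, so the libraries are named a, b and c.

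A maturing red cell takes in large amounts of iron. Iron bound to transferrin enters through the transferrin receptor, is reduced in the endosome, crosses the endosomal membrane and goes to mitochondria, where it is put into heme. Spare iron is stored in ferritin or leaves through ferroportin, and iron regulatory proteins, which bind hairpins in messenger RNAs, tune these steps. Tfrc encodes the transferrin receptor, whose protein is the CD71 of the cells' own label. Steap3 encodes the endosomal ferrireductase and Slc11a2 the iron transporter DMT1. Fth1 and Ftl1 encode the ferritin heavy and light chains, Ireb2 iron regulatory protein 2 and Slc40a1 ferroportin. Abcb10, a transporter of the mitochondrial inner membrane, and Slc25a38, the mitochondrial glycine carrier, serve heme synthesis.

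The captured fragments are given on mm9 with GENCODE M1 annotation. They lie at chr16:32608082-32609005 for Tfrc, chr15:100253204-100253622 for Slc11a2, chr1:122161651-122162096 for Steap3, chr19:10056948-10057157 for Fth1 and chr7:52715181-52715450 for Ftl1. The others lie at chr9:54711485-54712073 for Ireb2, chr1:45982371-45982929 for Slc40a1, chr8:126506573-126507371 for Abcb10 and chr9:120019464-120019627 for Slc25a38. A fragment held an annotated transcript start of its gene at 7 of the 9. At Tfrc the start was the base next to the fragment's end, and at Fth1 it was 36 bases past it. At Slc11a2 and Steap3 the fragment held an inner start, and the gene's outermost start lay 2299 and 7631 bases from the fragment's lower end. The Slc11a2 viewpoint is also named for Gm5475, and its fragment overlaps both genes, so its contacts cannot be assigned to Slc11a2 alone. The Abcb10 fragment also overlaps Gm20388.

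Some sequences are shown to place the promoters and what they touched. The first is the designed capture probe of Abcb10, which begins at the DpnII site in capitals. The next are the promoter ends of the captured Tfrc (chr16:32608806-32609005) and Fth1 (chr19:10056948-10057157) fragments on the plus strand, with the letters CCAAT, or ATTGG on the other strand, in capitals. Both stop short of the transcript.
Abcb10 probe: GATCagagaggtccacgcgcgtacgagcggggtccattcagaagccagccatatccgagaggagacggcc
Tfrc promoter: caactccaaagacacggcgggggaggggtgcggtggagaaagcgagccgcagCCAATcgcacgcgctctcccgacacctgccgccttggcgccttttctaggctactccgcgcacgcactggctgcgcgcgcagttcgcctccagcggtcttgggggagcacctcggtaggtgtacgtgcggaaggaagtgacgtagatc
Fth1 promoter: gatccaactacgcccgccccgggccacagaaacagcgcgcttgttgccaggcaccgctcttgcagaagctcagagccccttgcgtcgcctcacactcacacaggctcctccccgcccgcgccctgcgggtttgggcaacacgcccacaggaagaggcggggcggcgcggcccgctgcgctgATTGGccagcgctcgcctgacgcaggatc

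Iron-responsive hairpins that fit a strict pattern are shown for the same genes, as a known regulatory sequence that some members share. A hairpin was taken as a C, 5 stem bases, the loop CAGTGN and 5 bases pairing with the stem, G with T allowed, and the loop is in capitals. No bulge or mismatch was allowed in the 5 pairs. The counts are therefore of matches, and a gene without a match is not shown to lack such a hairpin. In the 5′ UTR it was found in Fth1, Ftl1 and Slc40a1, that is 3 of 9 members, against 0.166% of 19854 genes with a 5′ UTR. In the 3′ UTR it was found in Tfrc, with 4 hairpins, against 0.623% of 19915 genes with a 3′ UTR. None lay inside a captured fragment, so the contacts below are not those of the hairpins' own fragments.
Fth1 5′ UTR: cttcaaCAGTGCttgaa
Ftl1 5′ UTR: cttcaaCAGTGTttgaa
Slc40a1 5′ UTR: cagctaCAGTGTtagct
Tfrc 3′ UTR, first: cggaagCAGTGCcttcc

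RefSeq promoters (GRCm38.p6) of 7 of the 9 genes were at hand, 12 promoters in all, and Slc11a2 and Slc40a1 had none. They were searched on both strands for 5 motifs, whose matches may overlap, and single promoters are counted. CCAAT was in 4 of the 12, those of Fth1, Ftl1, Steap3 and Tfrc with 1 each, and in 37.4% of all 32851 promoters. The GATA letters AGATAA or TGATAA were in 1, of Steap3, and in 18.6% of all promoters. CCACCC, letters known to be bound by Kruppel-like factors, was in 7, of Fth1, Ftl1, Steap3 and Tfrc, and in 31.5% of all. AGGNGGC, part of the CTCF motif, was in 5, of Slc25a38, Steap3 and Tfrc, and in 29.4% of all. TGACTCA, known to be bound by AP-1 and NF-E2, was in 0, and in 5.20% of all. These are letter matches in a 300-base stretch, not binding sites.

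A ligation event between a promoter and a fragment of its own chromosome is called a cis event. Whole series depth was 18230099, 34428035 and 34233560 cis events in libraries a, b and c, with a median of 6482 per viewpoint over all libraries. Over the series, library b was closer to c (mean chi-square of 1.04 per 5 kb window, where sampling noise alone gives about 1) than a was to b or to c (1.13 for both). In the windows of the 9 promoters b was no closer to c (1.08) than to a (1.08), so the libraries were counted separately and means ± SD are over n = 3. A spread over 3 libraries is a rough one and may be technical. The paper counts unique ligation events but names no molecular identifiers for these libraries, and duplicates left after its filtering were not examined here. Intervals therefore cover counting error only.

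**Figure D1:**
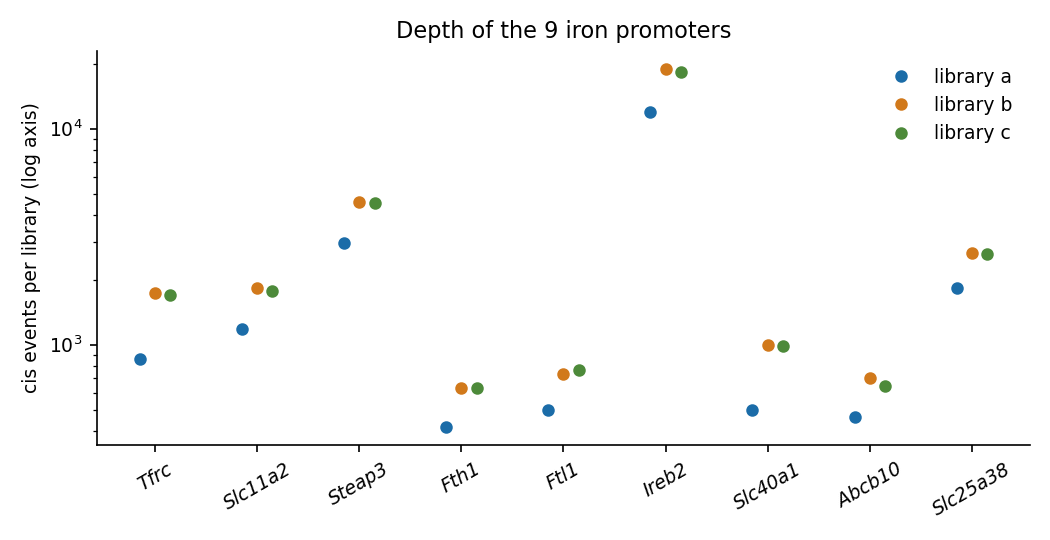
Cis events of each iron promoter (horizontal axis) in libraries a, b and c on a log axis. Ireb2 stands above the others in each library, with Fth1, Abcb10 and Ftl1 among the lowest.

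Depth differed widely between the promoters. Ireb2 had 49239 cis events and lies in a deep stretch of chromosome 9 whose 158 viewpoints had a median of 64839. Steap3 had 12064 and Slc25a38 7125. Slc11a2 had 4781, Tfrc 4297 and Slc40a1 2482. Ftl1 had 1989, Abcb10 1811 and Fth1 1679, near the bottom of the series, and 6 of the 9 promoters were below the series median. The fragments of Fth1, Ftl1 and Slc25a38 were short, at 210, 270 and 164 bp, and 12% of all viewpoints were under 300 bp. Ferritin genes have many pseudogene copies, and 0 of the fragments within 1 Mb of each promoter shared a 30-base word with its captured fragment. The rest of the genome was not searched. The Fth1 fragment ends 36 bases before the transcript, and the Ftl1 fragment holds only the transcript's first bases. The 0 therefore cannot speak to copies of the ferritin transcripts.

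How much of each promoter's contact lay close by was measured as the share of its cis events at 2.5 to 100 kb. Over the 6718 viewpoints with at least 1000 events the median share was 21.9%, with the 10th and 90th percentiles at 15.5% and 31.1%. Of the 9 iron promoters, 7 were above that median and 5 above the 90th percentile, namely Tfrc, Fth1, Abcb10, Ftl1 and Slc11a2. These 5 hold the main receptor for iron, both ferritin chains, and a transporter each of the endosome and the mitochondrion. Which promoters stand out hung on depth and on the events counted, as given below, so this is no grouping by function.

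For Tfrc the share was 44.5%, 42.2% and 41.9% in libraries a, b and c (42.9% ± 1.44, n = 3). It was above that of 99.5% of viewpoints. For Fth1 it was 44.5%, 41.2% and 39.1% (41.6% ± 2.71, n = 3), above 99.2% of viewpoints. These were the highest shares among the 9, and their ranges over libraries overlapped. Ftl1, the other ferritin chain, followed with 35.1%, 31.5% and 36.6% (34.4% ± 2.64, n = 3). Abcb10 had 37.1%, 35.8% and 33.0% (35.3% ± 2.11, n = 3). Slc11a2 had 35.7%, 33.0% and 33.0% (33.9% ± 1.57, n = 3). Abcb10, Ftl1 and Slc11a2 could not be set in order, since their values overlapped.

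Slc25a38 followed, its highest library level with the lowest of Ftl1, with 31.5%, 26.6% and 27.7% (28.6% ± 2.55, n = 3). Slc40a1, the iron exporter, overlapped it and was close to the median with 27.5%, 21.9% and 23.6% (24.4% ± 2.86, n = 3). Steap3 had 21.4%, 17.7% and 18.2% (19.1% ± 2.05, n = 3), and 55.8% of its events lay more than 10 Mb away, against a median of 34.1%. Ireb2 was the lowest in each library, at 16.6%, 14.4% and 14.8% (15.3% ± 1.18, n = 3). Library a had the highest share at 8 of the 9 promoters, the exception being Ftl1. The order hung on the events counted. As a share of events within 1 Mb, Fth1 had a mean of 69.6% over libraries, Slc40a1 68.5%, Abcb10 64.3% and Tfrc 63.1%. Slc25a38 had 62.2%, Steap3 59.5%, Ftl1 57.4%, Slc11a2 54.9% and Ireb2 45.8%. These shares were not set beside those of all viewpoints.

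Shallow viewpoints had higher near shares, with a median of 24.4% around the depth of Fth1, 21.3% around that of Steap3 and 16.5% around that of Ireb2, so each promoter was also set beside viewpoints within 25% of its own depth. Tfrc was above 99.4% of 1282 such viewpoints and Fth1 above 97.1% of 482. Slc11a2 was above 92%, Abcb10 above 90%, Ftl1 above 87.8% and Slc25a38 above 80.6% of theirs. Slc40a1 was above 46.9% of 749 viewpoints and Steap3 above 33.1% of 1352, so 6 of the 9 were above the median of like depth. Ireb2, at 15.1% over the summed libraries, was above 35% of 157 viewpoints. The part of depth in these shares was not tested further.

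**Figure D2:**
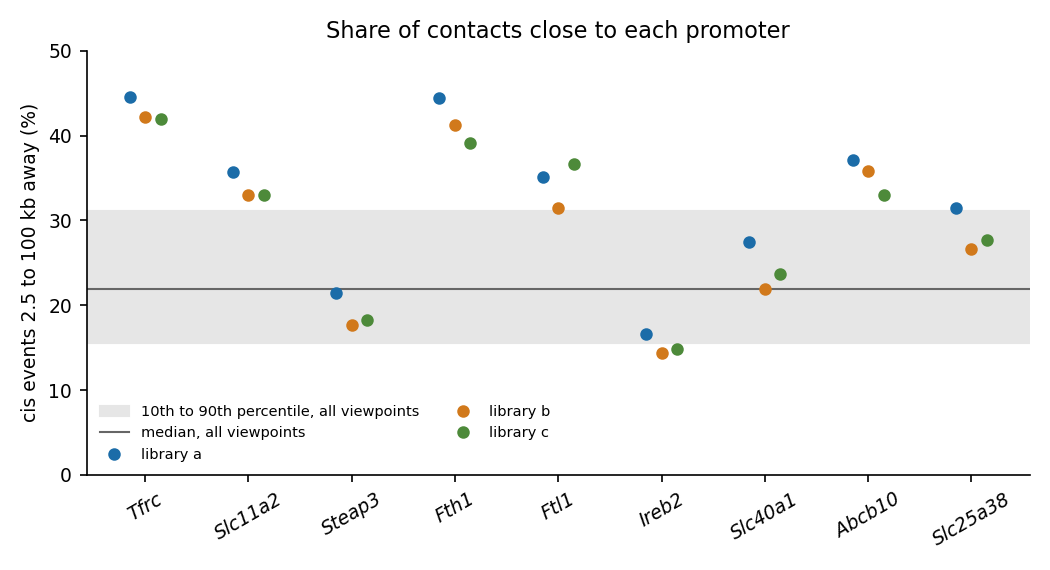
Share of cis events 2.5 to 100 kb away (vertical axis, %) for each iron promoter, with 1 point per library, the median of all viewpoints as a line and their 10th to 90th percentile as a grey band. Tfrc, Fth1, Abcb10, Ftl1 and Slc11a2 lie above the band in each library, with Tfrc and Fth1 the highest, and Ireb2 lies at its lower edge.

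The fall of contact with distance was given as the slope of log10 mean count per fragment on log10 distance between 10 kb and 1 Mb, where a more negative slope is a steeper fall. The median of all viewpoints was -0.91 and 8 of the 9 promoters were steeper. Fth1 had -1.26 over the summed libraries and Slc40a1 -1.21, both in the steepest 10% of viewpoints. Ireb2 was the exception with -0.85. Fth1 and Slc40a1 had only 1679 and 2482 cis events and Ireb2 49239. Slopes were not set beside viewpoints of like depth, so the part of depth in them was not tested. The remaining 6 ran from -1.11 at Abcb10 to -1.01 at Ftl1. The order hung on the range of distance. From 10 to 300 kb the mean over libraries was -0.996 at Fth1, less steep than -1.24 at Abcb10, -1.14 at Slc40a1, -1.10 at Steap3 and -1.07 at Slc25a38, while from 50 kb to 1 Mb Fth1 was again the steepest.

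Contacts of 7 of the 9 promoters were uneven between the sides, with exact 95% binomial intervals that leave out 50%, as did those of 84.2% of all viewpoints. Downstream means the direction in which the gene is transcribed. Over all viewpoints the fuller side held a median of 56.8% of events between 2.5 kb and 1 Mb, and 5 of the 9 promoters were above it. Tfrc was the most one-sided of the 9. Its downstream share was 25.8%, 28.5% and 28.9% in libraries a, b and c (27.8% ± 1.70, n = 3), and 791 of 2811 events gave 28.1% with an interval of 26.5 to 29.8%. Distance alone predicted 51.5%. Its upstream share of 71.9% was a fuller side than that of 96% of viewpoints.

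Slc25a38 leaned the other way, with 66.9%, 65.4% and 70.5% downstream (67.6% ± 2.62, n = 3). Within 100 kb it was 75.1% of 2014 events. Steap3 had 62.4%, 65.9% and 61.0% downstream, Slc40a1 64.0%, 63.4% and 60.3%, and Abcb10 63.4%, 56.2% and 61.3%. Ftl1, with 39.4%, 45.7% and 45.4%, and Ireb2, with 45.2%, 45.0% and 45.5%, leaned upstream by less than the median viewpoint leaned to either side. Slc11a2 with 50.8% and Fth1 with 50.1% over the summed libraries had intervals that hold 50%. The even share of Fth1 was made of unlike ranges, 39.0% of 692 events within 100 kb and 82.1% of 240 events beyond it.

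**Figure D3:**
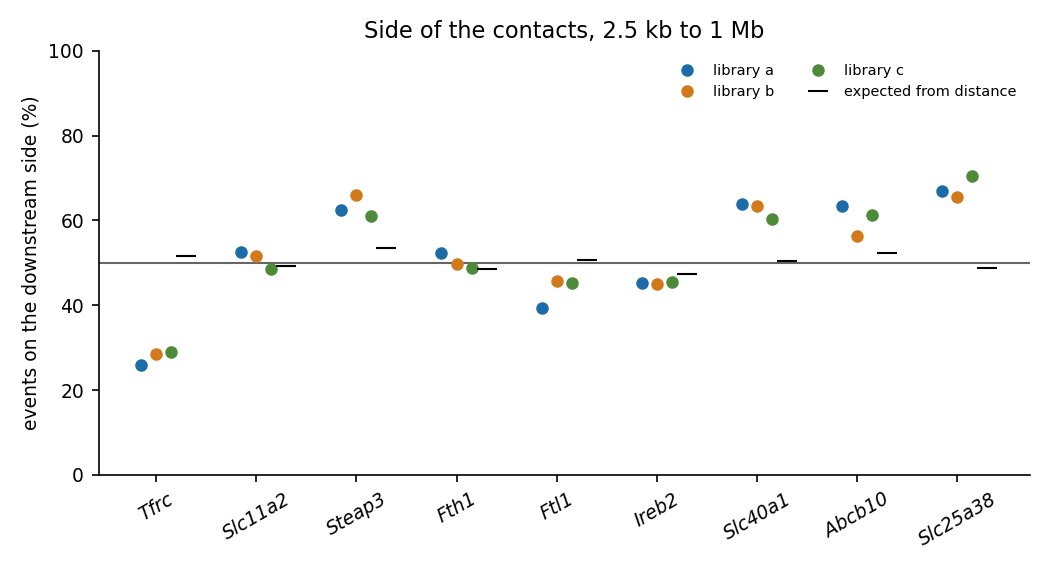
Share of events between 2.5 kb and 1 Mb that lay downstream (vertical axis, %), with 1 point per library and a dash for the share expected from distance. Tfrc is far under 50% in each library, and Slc25a38, Slc40a1, Steap3 and Abcb10 are over it.

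To find places of excess contact, events were summed in 5 kb windows and set against the count expected at that distance from a viewpoint of that depth. A window was called at an adjusted p under 0.05 in a negative binomial test, Benjamini-Hochberg adjusted over all 2655606 windows of the series, if its count was also above expectation in each library. Over the series 0.156% of windows were called, and 27.6% of viewpoints had at least 1. The iron promoters had 10 called of 3593 windows, and 4 of the 9 had at least 1, namely Tfrc, Slc40a1, Abcb10 and Slc25a38. The dispersion of this test leaves out the highest 0.1% of standardised counts. These are the windows furthest above expectation in units of the square root of the expected count. With all windows kept for it, 304 windows were called in the series and 0 for the iron promoters, of whose windows 148 had an unadjusted p under 0.05 in the test as reported. That is 4.12% of their windows, against 5.53% of all windows of the series. The calls below therefore rank the windows of a promoter and do not hold under each way of setting the spread.

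Of the called windows, the one with the highest ratio was at Tfrc. Its window at 100 kb upstream, chr16:32506044-32511043, held 21, 34 and 29 events in libraries a, b and c, where 9.43 were expected over all libraries. Observed over expected was 8.91 for the sum and 10.8, 9.10 and 7.75 in the libraries (9.21 ± 1.52, n = 3), with a negative binomial adjusted p of 1.39e-08. The window at 95 kb held 23, 39 and 38 events against 24.3 expected, 4.12 times, with a negative binomial adjusted p of 0.0134. All libraries were well above expectation in both windows, and both calls remained whichever library was left out. The windows lie in Zdhhc19, which encodes a palmitoyltransferase family protein. In units of the deposited table, the first window had 2448, 1956 and 1705 events per 100000 cis events.

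The excess around Tfrc was broader than its called windows. Over the 5 windows from 82.5 to 107.5 kb upstream, a stretch chosen after its values were seen, each was above expectation, with 90, 141 and 130 events and 3.81 times the expected count. The same distances downstream had 7, 11 and 15 events and 0.46 times. The upstream stretch held 17.9% of the upstream events out to 1 Mb. Tnk2, a viewpoint 35.1 kb downstream of Tfrc, also had a called window over the same place, 5.11 times expectation from about 135 kb away with a negative binomial adjusted p of 0.00197. It was the only other viewpoint that did, of 17 within 1 Mb.

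Single fragments of the Tfrc windows are printed for what they hold. With all fragment pairs setting the spread, 0.00086% of 28839764 pairs were called in the series and 0 of 39064 for the iron promoters, of which 1530 had an unadjusted p under 0.05 in the negative binomial test, 3.92% of them against 5.54% of all pairs. With the highest 0.1% left out, 0.00413% were called in the series and 4 for the iron promoters, 2 each for Tfrc and Slc25a38, the latter 61.3 and 63.7 kb downstream with 20 and 19 events. The Tfrc fragment chr16:32509416-32510671 had 6, 6 and 8 events and 14.8 times the expected count (adjusted p 0.00141 in that setting of the negative binomial test and 0.871 with all pairs). Its neighbour chr16:32510672-32511223 had 4, 8 and 4 events and 11.9 times. Both lie in Zdhhc19 outside exons. The first Tfrc fragment holds 5 matches to AGATAA or TGATAA on either strand, letters known to be bound by GATA factors, in 1256 bases. At least 1 such match was in 79.8% of tested fragments of like length, and its neighbour had 0. How many of those fragments hold 5 or more was not counted, so 5 cannot be called many or few. The 200 bases with most matches are printed, chr16:32509702-32509901, plus strand, matches in capitals.
Tfrc contact: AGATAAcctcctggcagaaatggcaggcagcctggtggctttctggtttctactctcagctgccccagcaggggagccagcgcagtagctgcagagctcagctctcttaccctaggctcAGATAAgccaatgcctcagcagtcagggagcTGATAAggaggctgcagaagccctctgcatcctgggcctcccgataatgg

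**Figure D4:**
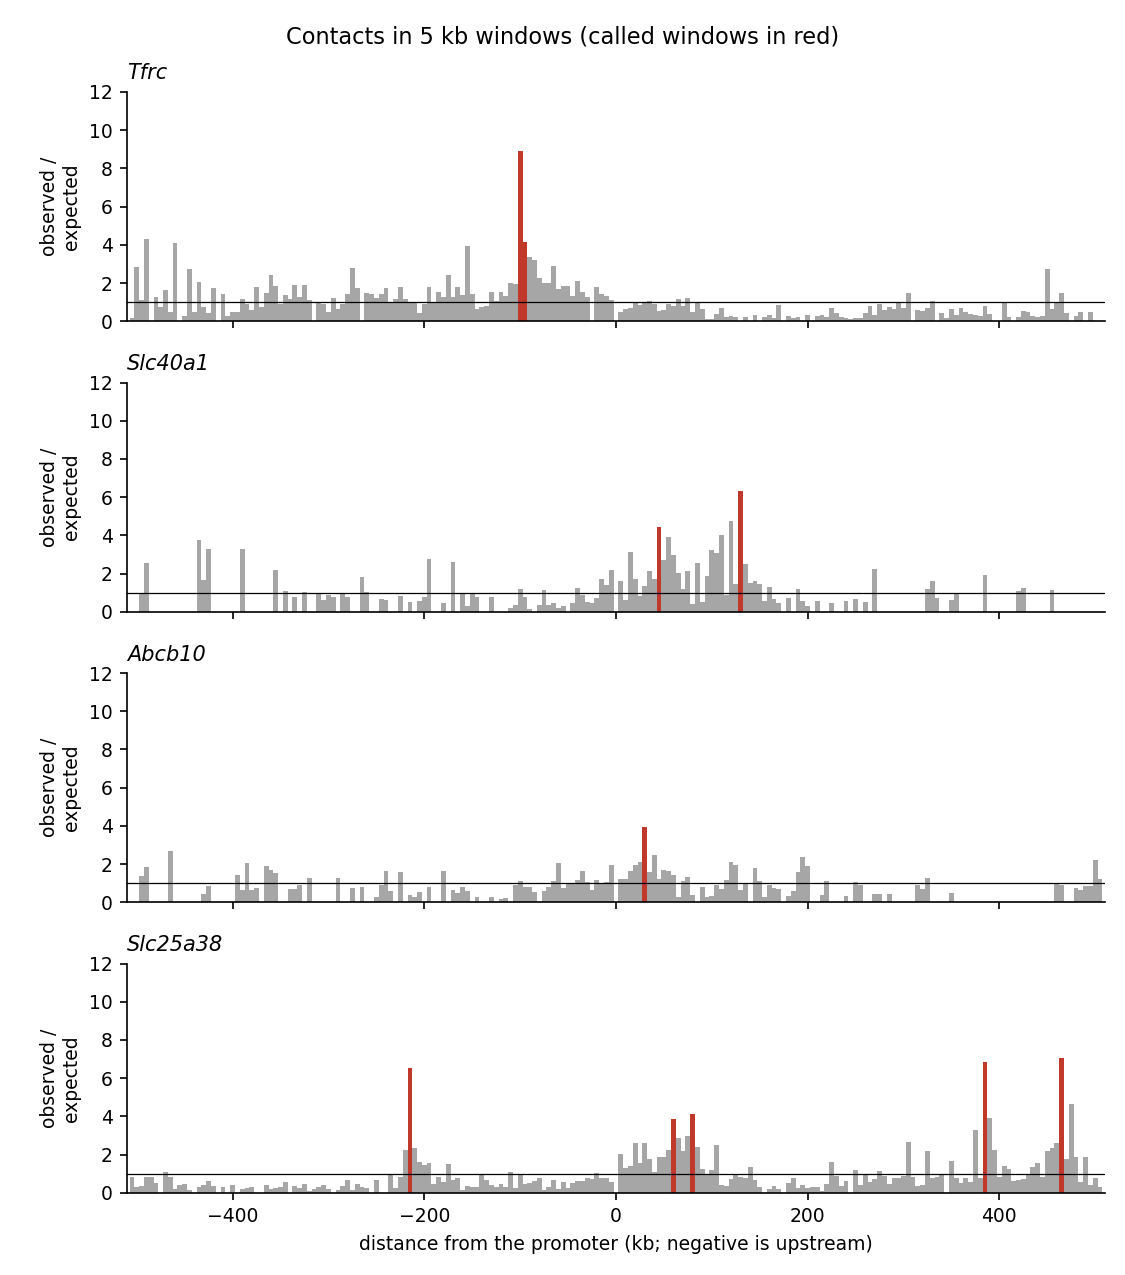
Observed over expected events in 5 kb windows (vertical axis) against distance in kb from the promoter (horizontal axis, negative upstream) for the 4 promoters with called windows, which are in red. The line is at 1, and the Tfrc excess rises toward 100 kb upstream while its downstream side stays mostly under 1.

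Slc25a38, which brings glycine into mitochondria for the first step of heme synthesis, had 5 called windows. The highest ratio was at 465 kb downstream, chr9:120482046-120487045, with 1, 9 and 7 events against 2.41 expected, 7.06 times. Here library a, at 1.48 times, was far below b and c. The window overlaps 5830454E08Rik and Rpl14, a ribosomal protein gene, but its fragment with most events, 6 of the 17, lies in no annotated gene. The call of this window (adjusted p 0.043 in the negative binomial test) was lost without library b and without library c. The window at 385 kb, chr9:120402046-120407045, overlaps Eif1b, a translation initiation gene, and had 6, 7 and 12 events, 6.86 times. Its call was lost without library c. The fragment with most events there, 5 of the 25, lies in no annotated gene. Without library a, a further window was called at 825 kb downstream, which had 0, 6 and 4 events.

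The window at 215 kb upstream of Slc25a38, chr9:119802046-119807045, had 9, 13 and 16 events against 5.80 expected. The ratio was 6.56 for the sum and 5.54, 6.22 and 7.69 in the libraries, with a negative binomial adjusted p of 0.0015. It overlaps Wdr48, and Acaa1a, a viewpoint 554 kb from the window, had a called window at the same place, 9.23 times expectation. The remaining calls were at 80 kb downstream, with 24, 26 and 30 events and 4.11 times, and at 60 kb downstream, with 37, 37 and 44 events and 3.87 times. These last 3 windows were called whichever library was left out. The window at 60 kb overlaps Mobp, a myelin protein gene.

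The windows at 60 and 80 kb belong to a run. From 52.5 to 87.5 kb downstream, again chosen after its values were seen, all 7 windows were above expectation, with 124, 164 and 173 events and 3.00 times the expected count. Upstream, 0 of the 7 windows at those distances were above it, with 17, 23 and 19 events and 0.408 times. The fragment with most events in the upstream 215 kb window lies in an intron of Wdr48, has 350 bases and 0 matches to the GATA letters, which 37.3% of tested fragments of like length hold. Its middle 200 bases are printed, chr9:119804987-119805186, plus strand, as the place of the firmest distant call of this promoter.
Slc25a38 contact: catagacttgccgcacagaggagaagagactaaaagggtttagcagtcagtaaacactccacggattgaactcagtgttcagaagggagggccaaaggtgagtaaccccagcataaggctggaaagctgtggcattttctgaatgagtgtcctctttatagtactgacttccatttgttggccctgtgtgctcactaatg

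The exporter Slc40a1 had called windows at 130 and 45 kb downstream. The first, chr1:45850150-45855150, overlaps Wdr75 and had 3, 11 and 5 events against 3.00 expected, 6.34 times. The other, chr1:45935150-45940150, overlaps no annotated gene and had 2, 14 and 9 events against 5.60 expected, 4.46 times. Library b was the highest in both, and library a had 4.40 and 1.57 times. Without library b neither window was called, and without library c the window at 45 kb was lost. Slc40a1 still had 2 calls without library b, at other places, 15 and 55 kb downstream. These windows held 14, 6 and 16 events and 5, 5 and 12 events, 3.15 and 3.93 times expectation over all libraries, where neither was called. By the negative binomial test on all libraries the adjusted p was 0.0135 at 130 kb and 0.0264 at 45 kb. At 15 and 55 kb it was 0.118 and 0.0799 in that test. The fragment with most events at 130 kb had 7, that is 1, 5 and 1, and its 179 bases are printed, chr1:45852897-45853075, plus strand, with 0 GATA matches.
Slc40a1 contact: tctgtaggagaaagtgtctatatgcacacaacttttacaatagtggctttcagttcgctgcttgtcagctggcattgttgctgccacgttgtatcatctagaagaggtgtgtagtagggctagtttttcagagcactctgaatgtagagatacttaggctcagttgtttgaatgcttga

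Abcb10 had 1 called window, at 30 kb downstream, chr8:126474472-126479472, which overlaps the far end of Abcb10 itself. It had 9, 13 and 12 events against 8.58 expected, 3.96 times for the sum and 4.02, 3.81 and 4.10 times in the libraries. The libraries were close together, yet the negative binomial adjusted p, 0.0437, was near the threshold and the call was lost when any library was left out. At this promoter 1 library held as few as 461 events.

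**Figure D5:**
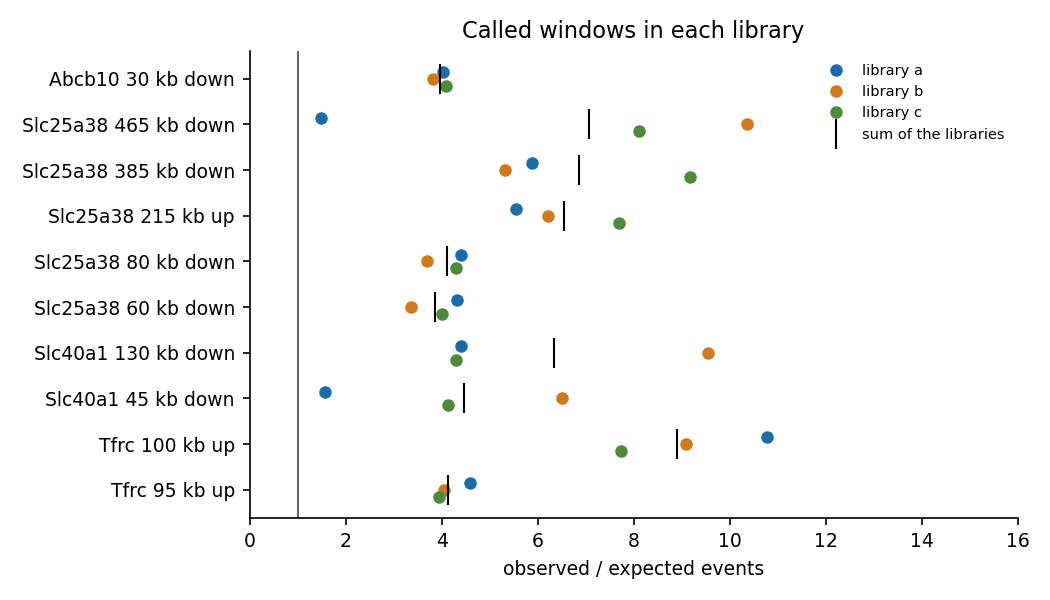
Observed over expected events (horizontal axis) for each called window (rows), with 1 point per library and a bar for the sum of the libraries. Library a stands well below b and c at Slc25a38 465 kb and Slc40a1 45 kb downstream, and the libraries lie close together at Abcb10, Tfrc 95 kb and Slc25a38 60 and 80 kb.

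For the other 5 promoters the window of lowest p, picked from the values, is given in place of a call. At the ferritin promoters it lay 65 kb upstream in both. Fth1 had 10, 6 and 8 events there and 3.64 times expectation (adjusted p 0.105 in the negative binomial test). Ftl1 had 13, 5 and 10 events and 3.59 times (adjusted p 0.0897 in that test). The Ftl1 window overlaps Tulp2, Ppp1r15a and Plekha4, and the Fth1 window no coding gene. Fth1 and Ftl1 lie on different chromosomes, so these are separate places.

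Steap3 had its lowest p at 140 kb downstream, with 14, 32 and 9 events and 3.67 times (adjusted p 0.0945 in the negative binomial test), where library b was far above the others. Ireb2, the deepest of the 9, had 44, 46 and 46 events at 160 kb upstream over Dnaja4, 3.00 times (adjusted p 0.207 in that test). Slc11a2 had 3, 3 and 5 events at 325 kb upstream, 3.91 times (adjusted p 0.46 in that test). A typical window of Ireb2 had 17.7 events expected, against 0.993 at Fth1 and 0.726 at Slc40a1, so the same fold rests on far fewer events at the shallow promoters. In the test as reported, calls did not follow depth among the 9, with 0 windows at Ireb2 and Steap3 and 3 at the shallower Slc40a1 and Abcb10. Of these 5 promoters, 3 gained 1 call under another setting, Fth1 and Ftl1 with 2 kb windows, Ftl1 and Steap3 without the highest 1% of standardised counts in the dispersion, Ftl1 without library b and Steap3 without library c. With Poisson counts, which leave out the spread beyond counting, each of the 5 had calls. These were 47 at Ireb2, 19 at Steap3, 10 each at Slc11a2 and Fth1 and 5 at Ftl1. At Ireb2 they took in each window from 120 to 175 kb upstream, at 1.52 to 3.00 times, a run picked from the values.

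Contacts with other captured promoters were read on the fragments 1 and 2 places from them, since a captured fragment is itself enriched by the pull-down. Summed over the 9, there were 446 events against 255 expected, 1.75 times (1.69, 1.86 and 1.67 in the libraries). Over all viewpoints the pooled ratio was 1.42, and the median of single viewpoints with at least 5 events expected was 1.53, above 4 of the 9 promoters. Ireb2 alone gave 184 of the 446 events, so the sum leans on it. Slc25a38 had the highest ratio of those with at least 5 events expected, with 78 events and 2.45 times (2.13, 2.88 and 2.28). Of its 78 events, 64 lay next to Rpsa, 17.1 kb downstream, as did 22.0 of its 31.8 expected events. The ratio of Slc25a38 thus leans on this near neighbour. Steap3 had 17 events and 2.26 times, which in library a was 3.51 and in b and c 1.78 and 1.83. Ireb2 had 1.96 times (1.82, 2.14 and 1.88). Tfrc, with 20 other viewpoints in reach, had 1.17 times (0.903, 1.41 and 1.07), which did not leave 1 beyond its spread. Fth1 had 19 events and 1.86 times (2.51, 1.06 and 2.18). Abcb10 had 1.48 times (0.355, 1.87 and 1.90), Ftl1 1.39 times (1.45, 0.993 and 1.70) and Slc11a2 1.35 times (1.62, 1.72 and 0.756). Like Tfrc, each was under the median viewpoint and had a library under 1. Slc40a1 had 1 event.

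The most contacted neighbours were named where at least 5 events were expected. For Slc25a38 it was Rpsa, a ribosomal protein gene 17.1 kb downstream, with 64 events and 2.90 times (2.59, 3.27 and 2.78). Measured from Rpsa it was 30 events and 1.90 times (1.60, 2.87 and 1.10). For Ireb2 it was Idh3a, a subunit gene of the mitochondrial isocitrate dehydrogenase, 277 kb upstream, with 30 events and 2.60 times (1.68, 3.44 and 2.39), and 16 events and 2.82 times from Idh3a. Both directions were above 1 in each library for these pairs. Fbxo22, 345 kb downstream of Ireb2, had 2.46 times one way and 1.39 times in reverse, where library b gave 0.858.

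Letmd1, 45.9 kb upstream of Slc11a2, had 19 events and 2.04 times (3.68, 1.69 and 1.20), and 1.04 times in reverse (1.31, 0.56 and 1.33), so the libraries of the 2 directions overlapped. Tnk2 had 0.853 times from Tfrc and 0.959 times from its own side. Bax, 6.93 kb upstream of Ftl1, had 0.91 times. Tnk2 was thus not in excess contact with Tfrc itself, although each had a called window at the same place in Zdhhc19.

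Whole profiles were compared as Pearson r of log2 observed over expected across shared 5 kb windows, a description only, since windows are not independent and viewpoints share libraries. The closest of the neighbours within 500 kb is named, so each r is the highest of those compared and is given with their median. Ireb2 was most like Psma4_AY074887, 86.7 kb downstream (r = 0.73 over 382 windows), with a median of 0.61 over 5 neighbours. Fth1 was most like Tmem258_Fen1, 222 kb downstream (r = 0.68 over 196 windows), which hardly differed from its median of 0.65 over 5. Tfrc was most like Lmln, 454 kb downstream (r = 0.56 over 304 windows), against a median of 0.27 over 11. Ftl1 was most like Gm15545_Prmt1 (r = 0.53 over 224 windows), against a median of 0.33 over 19 and a lowest r of -0.25. Slc25a38 was most like Rpl14, 461 kb downstream (r = 0.48 over 162 windows), with a median of 0.45 over 4. Rpl14 is among the genes that its called window at 465 kb overlaps. Slc11a2, Abcb10 and Steap3 reached 0.43, 0.40 and 0.36, with medians of 0.39 over 6, 0.39 over 2 and 0.28 over 3. Slc40a1 had no neighbour to compare.

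Members of the same chromosome were compared in windows of 500 kb to each side of the partner. Ireb2 and Slc25a38 lie 65.3 Mb apart on chromosome 9. From Ireb2 there were 79 events near Slc25a38 against 69.0 expected, with an exact Poisson interval of 62.5 to 98.5, and from Slc25a38 14 events against 10.1. Steap3 and Slc40a1 lie 76.2 Mb apart on chromosome 1, with 9 events against 9.33 expected one way and 3 against 2.20 the other. With 500 kb neither pair left the expected count by more than its counting error. The result hung on the width. With 100 kb to each side Ireb2 had 25 events against 13.9 expected (interval 16.2 to 36.9), with 4, 8 and 13 in libraries a, b and c, and Steap3 had 7 against 2.14 (interval 2.81 to 14.4), with 2, 1 and 4. Both intervals lie above the expected count. In reverse Slc25a38 had 4 events against 1.97 and Slc40a1 2 against 0.458, within counting error. With 1 Mb to each side Ireb2 had 156 against 136 and Steap3 10 against 17.8, again within it.

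The same reading was made for 54 other symbols of iron and heme genes, among them the enzymes of heme synthesis and the mitoferrins. Erfe and Fam132b in this list are symbols of the same gene. Of these, 33 were among the viewpoint names, with 35 viewpoints deep enough to test. At least 1 window was called for 16 of the 35, 50 windows in all, with 13 at Cpox, the coproporphyrinogen oxidase of heme synthesis, and 8 at Slc25a39, a mitochondrial carrier. That is 45.7% of viewpoints, against 44.4% of the 9 iron promoters and 27.6% of the series. Their median near share was 25.5%, against 33.7% for the 9. The choice of genes was made with earlier results of these data known, and these shares were not tested against each other.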

How the data were processed

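The 3 libraries of 1 group were analysed, as a table of 47812899 contacts of 7184 viewpoints. Per the labels the submitters' processing notes name Trim Galore, Bowtie and mm9. The authors deposited a signal for each viewpoint and DpnII fragment, the events per 100000 cis events of that viewpoint in a library. Taking the smallest value as 1 event gave whole counts for 100% of values (tolerance 0.01). The deposited viewpoint list gave positions, 2 of them with letters run on, which were dropped. Fragments that were viewpoints were left out. Expected counts came from 50 log bins of distance (2.5 kb to 1 Mb) over viewpoints with at least 1000 events. Dispersion was set by moments in 20 distance bins for windows, without the highest 0.1% of standardised counts, and in 50 for fragments, with all pairs. Tests were negative binomial with Benjamini-Hochberg adjustment, checked on simulated data, in Python 3.11.15 with numpy 2.4.6, scipy 1.17.1 and pandas 2.3.3. Named items were all promoters present, up to 3 called windows of highest ratio for each, with all calls given at Slc25a38, up to 2 neighbours with at least 5 expected events and the most alike profile within 500 kb over at least 50 windows (pseudocount 0.5). The members and gene lists were chosen with earlier results of these data known. Whether the libraries came from separate animals was not given, so their spread may be technical.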

Additional observations from a re-analysis of the deposited data

How the results depend on the processing

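With 1 group and no comparison between groups, no paired analysis was possible because no second group shares the replicate numbers. The 10 windows and 4 promoters called became 0 and 0 with all windows kept for the dispersion, 156 and 9 with Poisson counts, 5 and 1 with a minimum of 5000 cis events, which leaves out 6 of the 9 promoters, and 4 and 2 at an adjusted p under 0.01. Beside all windows kept and the minimum of 5000 events, the Slc25a38 windows at 60, 80 and 215 kb and the Tfrc window at 100 kb were lost in none of the alternatives run for windows, and the Tfrc window at 95 kb only at an adjusted p under 0.01. The Abcb10 window was also lost with 2 kb windows, with 10 kb windows, with fragment length in the expectation and with chromosome X and the deep chromosome 9 stretch left out of it. With 2 kb windows the calls of Slc40a1 at 45 kb and Slc25a38 at 385 kb were lost, and with 10 kb windows those of Slc40a1 at 130 kb and Slc25a38 at 465 kb, the last also with fragment length in the expectation. Poisson counts, leaving the highest 1% out of the dispersion and the filter on shared words could not remove a call. Leaving out 1 library gave 7 to 10 windows and 3 to 4 promoters. For single fragments the 0 calls became 4 when the dispersion leaves out its highest 0.1%, 7 when it leaves out 1%, 199 with Poisson counts and 1 with fragment length in the expectation, and stayed at 0 without each library. The mean slope of -1.09 became -0.99 over 10 to 300 kb, -1.28 over 50 kb to 1 Mb and -0.97 pooled by counts, where Ireb2 weighs most, and -1.10 to -1.07 without a library. The mean near share of 30.6% became 60.6% of events within 1 Mb and 22.7% from 10 kb. Both shifts of the mean are by construction. Within 1 Mb the order of the promoters also changed, with Slc40a1 at 68.5% above Tfrc at 63.1%. Without a library the mean near share was 29.6 to 31.2%. The mean downstream share of 52.4% was 52.3% over 2.5 to 100 kb and 53.3% from 10 kb, and 52.3 to 52.4% without a library. Observed over expected next to other promoters, 1.74, became 1.37 at 1 place, 1.92 at 1 to 5 places and 2.11 with promoters weighted equally, where Slc40a1 with 1 event against 0.17 expected sets the rise (1.74 when it is left out, also chosen after seeing the data), and 1.68 to 1.78 without a library. Counting libraries b and c as 1 sample, an alternative chosen after seeing the data, gave -1.09, 31.1%, 52.4% and 1.73 for these 4 means. The pair Ireb2 and Slc25a38, at 1.18, became 1.82 with 100 kb windows and 1.13 to 1.23 without a library. The pair Steap3 and Slc40a1, at 1.04, became 3.46 with 100 kb and 0.725 with 1 Mb windows, and 0.861 to 1.29 without a library. Where no construction is named the cause was not tested. No call was lost or moved by fragments sharing 30-base words, of which there were 0.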
